A study of Bos taurus with 8 samples.

Results

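The 10 genes described here encode RNA-binding proteins that govern splicing or mRNA stability in skeletal muscle: *RBM24*, *RBM20*, *RBM38*, *MBNL1*, *MBNL2*, *MBNL3*, *CELF1*, *CELF2*, *QKI* and *RBFOX2*. They were selected by name from the gene-level count table, and the list was chosen with earlier results of the same clones known, so their difference between the groups is given as a description: no p-value is printed for a regulator, and counts of those past a threshold are not a test. All 10 were in the table of 18871 named genes, and all 10 were among the 18339 genes tested, which had at least 20 counts in total over the 8 clones.

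RNA was sequenced from 8 preadipocyte clones of adult male *Bos taurus* (Angus-cross steers), 4 from intramuscular fat (IMF1 to IMF4) and 4 from subcutaneous fat (SF1 to SF4). Every clone was grown by limiting dilution from 1 cell of the stromal vascular fraction, the non-adipocyte cells of fat tissue, and was picked for its proliferation, adipogenic potential and fibroblast-like shape, so the clones are not a random sample of the cells in the depot. Neither group carries a transgene or a knockout. The paper places RNA extraction in subconfluent cells in growth medium, whereas the deposited design text places adipogenic induction before sequencing, and each clone is described as taken from an SVF sample of its depot. Which IMF and SF clones share a steer was not given in the sources used here, and a p-value measures the spread between these clones. Between 19653988 and 29308030 counts per clone fell on the genes tested, and no clone was a repeat deposit of another.

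Alternative splicing in striated muscle is set by a small number of RNA-binding proteins that bind introns next to alternative exons and promote or block their use. The muscleblind-like proteins (MBNL) and the CELF proteins act in opposite directions on many shared exons, and their balance shifts during muscle development and is disturbed in myotonic dystrophy. RBM24 and RBM38 are close paralogs, known as the SEB4 proteins, that regulate muscle splicing and mRNA stability. RBM20 represses exons of the giant sarcomere protein titin in striated muscle. QKI and RBFOX2 are more broadly expressed splicing regulators that also act in muscle and in mesenchymal cells.

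*RBM24*, *RBM20* and *MBNL3* were present in all 4 IMF clones, and each had at most 2 counts in any SF clone, except for 14 counts of *RBM20* in SF4. *MBNL1* and *CELF1* were higher in every IMF clone than in any SF clone by less than 2-fold, and *MBNL2* was lower in every IMF clone than in any SF clone. *RBM38*, *CELF2*, *QKI* and *RBFOX2* overlapped between the groups. A gene is called here when edgeR's quasi-likelihood test gave an adjusted p under 0.05 together with an absolute log2 fold change of 1 or more. By that rule 3 of the 10 regulators were called higher in IMF, beside 4.78% of all genes tested, and 0 were called lower, beside 4.04%. At an adjusted p under 0.05 and any fold, 5 of 10 were higher (14.4% of all genes) and 0 were lower (11.4%). Of the 20 alternative settings, *CELF1* was under that adjusted p in 13, *MBNL1* in 19 and *MBNL2*, as lower, in 7, DESeq2 among them. The lowest IMF clone exceeded the highest SF clone for 5 of 10 (18.0% of all genes), and the reverse held for 1 of 10 (14.1%). Because the same contrast was known when the list was chosen, nothing is read from these counts.

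**Figure D1:**
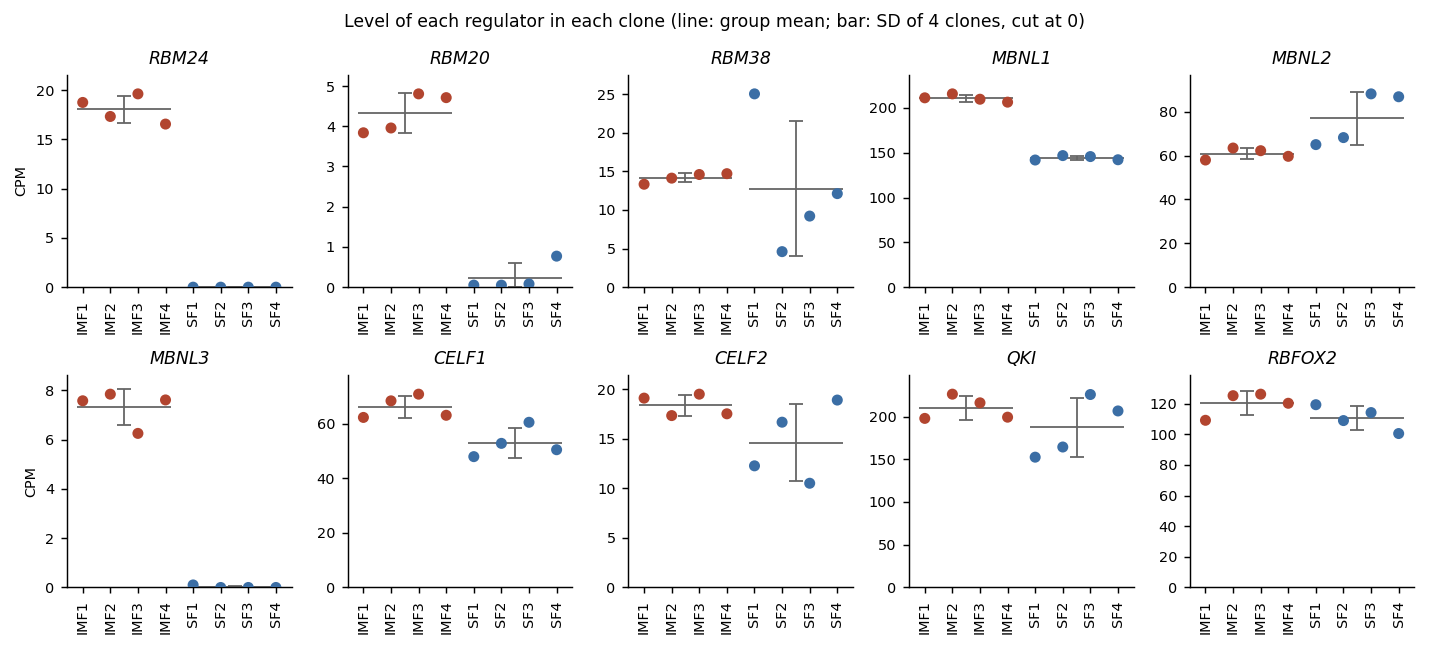
Level of each regulator in each clone, in CPM after TMM scaling; red points are the 4 IMF clones, blue points the 4 SF clones, horizontal lines the group means and bars the SD of the 4 clones, stopped at 0. *RBM24* and *MBNL3* are at or near 0 in the SF clones, *RBM20* is near 0 in SF1 to SF3 and at 0.771 CPM in SF4, *MBNL1* forms 2 tight groups, and SF1 has the highest *RBM38* level of all clones at 25.0 CPM while SF2 has the lowest at 4.605 CPM.

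*RBM24* encodes an RNA-binding protein needed for muscle differentiation, sarcomere assembly and muscle-specific splicing (chromosome 23, 40055498 to 40067412 in ARS-UCD2.0). It had 391, 530, 433 and 348 counts in IMF1 to IMF4 and 0 counts in each of the 4 SF clones. The groups were therefore fully separate, and the IMF clones were close to one another. Expressed as CPM, the counts scaled to a common library size with TMM factors, the IMF clones had 18.8, 17.3, 19.6 and 16.6, with a mean of 18.1 ± 1.38 CPM (SD, n = 4). Taking 3 counts in each SF clone as the limit that a count of 0 allows, the level of *RBM24* in IMF was higher by a factor of at least 122. Such limits cover counting error only, and 3 counts correspond to between 0.122 and 0.165 CPM in the SF clones.

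*RBM38* encodes the paralog of RBM24, an mRNA-stability factor that also takes part in muscle differentiation (chromosome 13, 58648876 to 58773500). It had 13.3, 14.1, 14.6 and 14.7 CPM in IMF1 to IMF4 and 25.0, 4.605, 9.21 and 12.1 CPM in SF1 to SF4. The SF clones ranged on both sides of the IMF clones, with SF1 above all 4 of them and the other three SF clones below. The means were 14.2 ± 0.623 and 12.7 ± 8.77 CPM (SD, n = 4 each), a coefficient of variation of 4.39% in IMF and 68.8% in SF. The log2 fold change was 0.16 (SE 0.42), 0.72 when SF1 was left out and -0.12 when SF2 was left out, so its direction rested on single SF clones. The annotated span of *RBM38* overlaps *CTCFL* and a long non-coding RNA, and reads shared with them cannot be told apart if strand was not used in counting, on which the sources differ.

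Levels of different genes were compared per length, in TPM, computed from the counts and the deposited gene length. On that scale the SEB4 pair was split almost evenly in IMF: *RBM24* held between 47.3% and 52.8% of the summed TPM of *RBM24* and *RBM38* in the 4 IMF clones, with means of 9.65 ± 1.41 TPM and 9.48 ± 0.681 TPM (SD, n = 4). In the SF clones the whole sum was *RBM38*. The summed level ranged from 17.5 to 21.6 TPM in IMF and from 3.31 to 16.2 TPM in SF, with SF1 at the upper end.

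*RBM20* encodes the titin splicing repressor (chromosome 26, 31202078 to 31399463). It had 80, 121, 106 and 99 counts in IMF1 to IMF4 and 1, 1, 2 and 14 counts in SF1 to SF4. All 4 IMF clones lay above all SF clones, and SF4 stood above the other three SF clones. The levels were 3.84, 3.96, 4.81 and 4.71 CPM in IMF and 0.0513, 0.0501, 0.0812 and 0.771 CPM in SF, with means of 4.33 ± 0.501 and 0.238 ± 0.356 CPM (SD, n = 4 each). The log2 fold change was 4.21 (SE 0.75). Without SF4 the fitted value was 6.00, but SF1 to SF3 each had fewer than 3 counts, so its size is uncertain. Per length *RBM20* was near the bottom of the 10 regulators in IMF, at 0.726 TPM. A long non-coding RNA is annotated within its span.

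*MBNL1* encodes the principal muscleblind-like protein, which promotes adult exon choices in muscle and is sequestered by expanded CUG repeats in myotonic dystrophy (chromosome 1, 115302493 to 115524952). Its levels were 211, 216, 209.8 and 207 CPM in IMF1 to IMF4 and 142, 147, 146 and 142 CPM in SF1 to SF4. The 2 groups were separate, and both were tight. The means were 211 ± 3.84 and 144 ± 2.49 CPM (SD, n = 4 each), a ratio of 1.46 and a log2 fold change of 0.55 (SE 0.06). Its coefficient of variation was 1.82% among IMF and 1.73% among SF clones, where the median over 14351 genes was 8.01% and 16.1%. *MBNL1* had the highest mean level per length of the 10 regulators in both groups.

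*MBNL2*, a paralog with overlapping binding preference that is prominent in brain, had the opposite direction (chromosome 12, 74410787 to 74572581). It had 58.0, 63.4, 62.2 and 59.6 CPM in IMF1 to IMF4 and 65.0, 68.2, 88.1 and 86.8 CPM in SF1 to SF4. SF3 and SF4 were the highest clones, and the gap between the highest IMF clone and the lowest SF clone was small. The means were 60.8 ± 2.47 and 77.0 ± 12.1 CPM (SD, n = 4 each), with SF 1.27 times IMF. The log2 fold change was -0.34 (SE 0.11) and stayed negative in all 20 alternative settings, from -0.41 without SF1 to -0.19 with total counts as the only scaling.

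*MBNL3* encodes the muscleblind-like protein associated with undifferentiated muscle cells and placenta (chromosome X, 16204462 to 16325689). It had 158, 240, 138 and 160 counts in IMF1 to IMF4 and 2, 0, 0 and 0 counts in SF1 to SF4. Every IMF clone expressed it, and in the SF group only SF1 had any count. The IMF mean was 7.33 ± 0.723 CPM (SD, n = 4), at least 49.6-fold above 3 counts in each SF clone. All 8 counts of *MBNL3* are even, as are those of 1578 of the genes tested (8.60%). If each read had been counted 2 times in such genes, the counts would be 79, 120, 69, 80, 1, 0, 0 and 0 and the bound 24.8-fold; the reason for the even counts was not tested.

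Within the MBNL family the make-up differed between the groups. *MBNL1* held between 68.7% and 70.1% of the summed MBNL TPM in the IMF clones and between 53.1% and 60.1% in the SF clones. *MBNL2* held between 27.9% and 29.6% in IMF and between 39.9% and 46.9% in SF. *MBNL3* stayed a minor member, between 1.65% and 2.05% in IMF and at most 0.0349% in SF, or between 0.831% and 1.03% in IMF with even-only counts halved. The ranges of all 3 shares were separate between the groups, and among the SF clones SF3 and SF4 had the lowest *MBNL1* share. The summed TPM of the family overlapped, at 61.3 to 71.4 in IMF and 50.0 to 61.8 in SF.

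**Figure D2:**
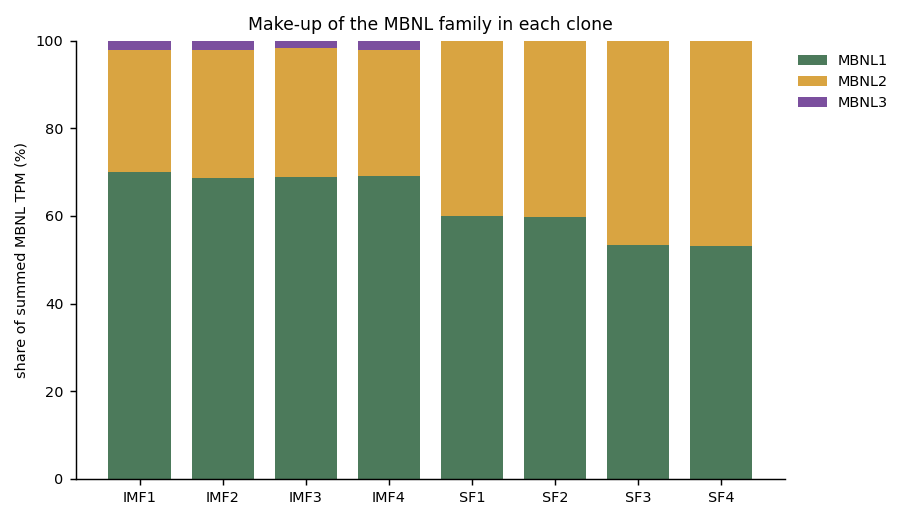
Share of the summed MBNL TPM (vertical axis, %) held by *MBNL1*, *MBNL2* and *MBNL3* in each of the 8 clones, computed from the counts and gene lengths. *MBNL1* takes at least 68.7% in every IMF clone and at most 60.1% in any SF clone.

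*CELF1*, which antagonises MBNL on many developmental exons and also promotes mRNA decay, was higher in IMF by a small step (chromosome 15, 77280292 to 77368002). Its levels were 62.4, 68.5, 70.9 and 63.2 CPM in IMF1 to IMF4 and 48.0, 52.9, 60.6 and 50.5 CPM in SF1 to SF4. The lowest IMF clone lay just above the highest SF clone, SF3. The means were 66.2 ± 4.13 and 53.0 ± 5.44 CPM (SD, n = 4 each), and the log2 fold change was 0.32 (SE 0.09). Both *CELF1* and *MBNL1* were thus on the IMF side, while *MBNL2* was on the SF side.

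*CELF2*, the related CELF protein of heart, brain and lymphocytes, did not separate the groups (chromosome 13, 12867751 to 13425190). It had 19.1, 17.3, 19.5 and 17.5 CPM in IMF1 to IMF4 and 12.3, 16.7, 10.5 and 18.9 CPM in SF1 to SF4. SF4 lay within the IMF range and SF1 and SF3 were well below it. The means were 18.4 ± 1.09 and 14.6 ± 3.87 CPM (SD, n = 4 each), and the log2 fold change was 0.33 (SE 0.18). Over the 20 alternative settings it ran from 0.17 without SF3 to 0.49 with total counts as the only scaling. The deposited length of *CELF2* is 867 bases, although the gene spans 557440 bases in the annotation, and the median length of the other 9 regulators is 8534 bases. Its level per length, 35.4 TPM in IMF and 27.5 TPM in SF, is therefore uncertain. The span also holds 2 long non-coding RNAs and the microRNA gene *MIR7861*.

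*QKI* encodes quaking, a STAR-family protein that regulates splicing and circular RNA formation in mesenchymal and muscle cells (chromosome 9, 98820543 to 98980967). It had 198, 226, 216 and 199 CPM in IMF1 to IMF4 and 152, 164, 226 and 207 CPM in SF1 to SF4. SF1 and SF2 were below the IMF clones, whereas SF3 and SF4 lay among them. The means were 209.8 ± 13.7 and 187 ± 34.6 CPM (SD, n = 4 each), and the log2 fold change was 0.16 (SE 0.13). Over the 20 alternative settings it ran from 0.08 without SF1 to 0.31 with total counts as the only scaling.

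*RBFOX2*, the widely expressed RBFOX protein that binds GCAUG elements, was nearly level (chromosome 5, 73895772 to 74189001). Its levels were 109, 125, 126 and 120.3 CPM in IMF1 to IMF4 and 119, 109, 114 and 100.5 CPM in SF1 to SF4. The ranges overlapped. The means were 120.2 ± 7.82 and 110.8 ± 8.04 CPM (SD, n = 4 each), and the log2 fold change was 0.12 (SE 0.08). Over the 20 alternative settings it ran from 0.07 without IMF3 to 0.26 with total counts as the only scaling.

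**Figure D3:**
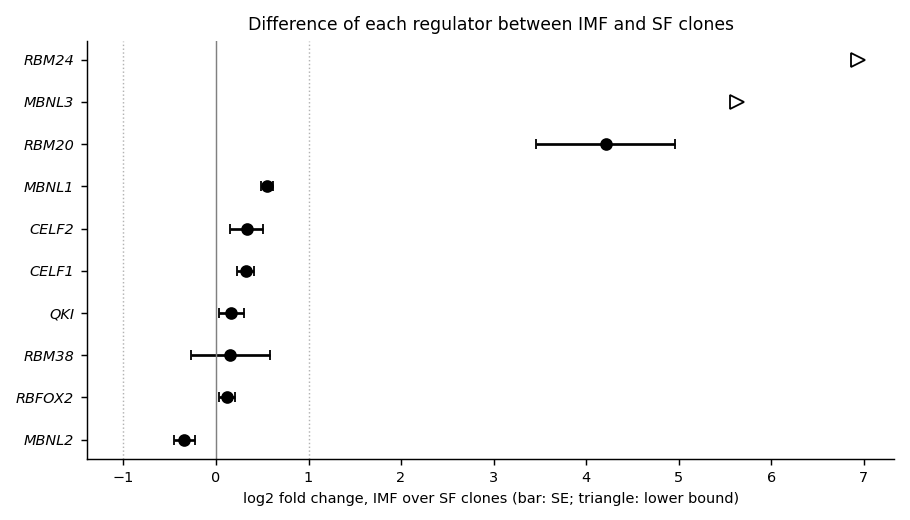
Log2 fold change of each regulator, IMF over SF clones, with its SE from edgeR; open triangles are lower bounds for *RBM24* and *MBNL3*, computed against 3 counts in each SF clone, and dotted lines mark a log2 fold change of 1 in either direction. *RBM24*, *MBNL3* and *RBM20* lie beyond the upper dotted line, the other 7 lie between the lines, and *MBNL2* is below 0.

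Of the 10 log2 fold changes, 9 were positive in the comparison as run, and the median was 0.33, where the median over all genes tested was -0.03. With total counts as the only scaling the median over all genes moved to 0.12 and that of the 10 regulators to 0.48, and *MBNL2* was still below 0.

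Per length, the order in IMF was *MBNL1* (46.1 TPM), *CELF2*, *QKI* (26.6), *RBFOX2* (23.3), *MBNL2* (19.2), *CELF1* (13.0), *RBM24*, *RBM38*, *MBNL3* (1.28) and *RBM20*. *QKI* overlapped *RBFOX2*, and *RBM24* overlapped *RBM38*; the other neighbours did not overlap. With even-only counts halved, *MBNL3* (0.592 to 0.704 TPM) overlapped *RBM20* (0.626 to 0.868 TPM) and its mean of 0.644 TPM was the lower, so the order at the bottom rests on how *MBNL3* was counted. In SF the order was *MBNL1* (31.2 TPM), *CELF2*, *MBNL2* (24.0), *QKI* (23.4), *RBFOX2* (21.3), *CELF1* (10.3), *RBM38* (8.24), *RBM20*, *MBNL3* and *RBM24*. The first 5 overlapped their neighbours among themselves, as did *CELF1* and *RBM38* and the 3 genes at the bottom. *MBNL1* had the highest mean in both groups, the second place of *CELF2* rests on its short deposited length, and the places of *RBM24*, *RBM20* and *MBNL3* in SF rested on 14 counts or fewer per clone.

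The clones were labelled preadipocytes, and markers of other cell types differed between the groups beside the regulators. The 6 preadipocyte markers summed to 405 to 425 CPM in IMF and 309 to 458 CPM in SF, and the overlapping sums held differences in both directions. *CD34*, a surface marker of progenitor cells, was called higher in IMF (at least 70.8-fold), and *PPARG*, the main adipogenic transcription factor, was called lower (log2 fold change -1.35, edgeR adjusted p = 0.00365). All 8 skeletal muscle markers were called higher in IMF, beside 4.78% of all genes tested. Their sum was 762 to 881 CPM in IMF and 0.751 to 31.4 CPM in SF. *MYOD1* and *MYOG*, the transcription factors that define the myogenic lineage, were at 0 counts in all 4 SF clones, where SF2 had the lowest muscle sum and SF4 the highest. The call of *DES* was made in 13 of 20 alternative settings, and those of the other 7 muscle markers in all 20. SF4 was also the SF clone with the highest *RBM20*. In every SF clone 4 of the 8 muscle markers had 3 counts or fewer. *DES* had the lowest log2 fold change of the list, 3.01. The SF sums therefore do not reflect the whole list. Because the libraries are bulk RNA of a clone, fewer cells of a type and less RNA per cell cannot be told apart.

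Of the 8 endothelial markers 7 were called higher in IMF. Among all genes tested 4.78% were called higher and 4.04% lower, to be set beside each count of marker calls. The endothelial sums were 149 to 196 CPM in IMF and 27.3 to 38.1 CPM in SF. *KDR* and *EMCN* were at 0 in all SF clones. Smooth muscle and pericyte markers (4 of 7 in the table) summed to 1161 to 1299 CPM in IMF and 1543 to 7461 CPM in SF, with 1 called higher and 3 called lower in IMF and SF1 highest, although the calls of *ACTA2* and *MYH11* were made in only 11 and 12 of the 20 settings. Leukocyte markers (6 of 7) summed to 18.5 to 41.7 CPM in IMF and 49.2 to 83.1 CPM in SF, with 1 called in each direction. The lower call, *CD3E*, was made in 13 of the 20 settings, and *PTPRC* was called lower in 6 of them. Neuronal markers (2 of 5) summed to at most 6.52 CPM in any clone. The part of these cell types in the levels of *RBM24*, *RBM20* and *MBNL3* was not tested.

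**Figure D4:**
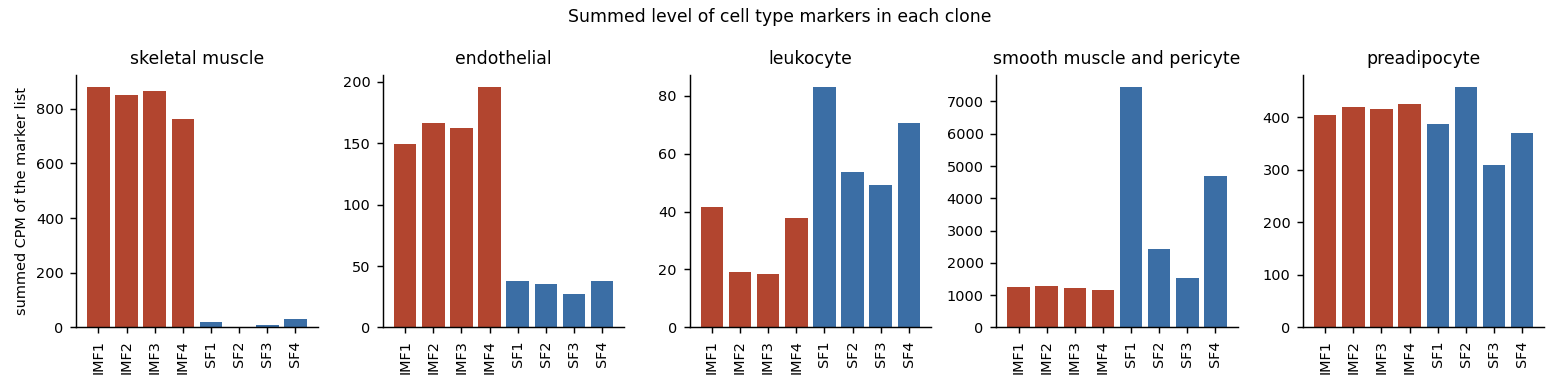
Summed CPM of 5 cell type marker lists in each clone (bars start at 0; red, IMF; blue, SF). Skeletal muscle and endothelial sums are higher in every IMF clone than in any SF clone, the smooth muscle and pericyte sum is highest in SF1 at 7461 CPM, and the preadipocyte sums overlap.

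The genes whose log2 CPM over the 8 clones was most like that of *RBM24*, the regulator with the largest difference, were *CBLN4*, *MYO18B*, *MYOD1*, *ATP8A1* and *MAP3K9*. All 5 had 0 counts in every SF clone. *MYO18B*, an unconventional myosin of muscle, ran from 18.0 to 20.4 CPM in the IMF clones, and *MYOD1* ran from 150.4 to 174 CPM. The likeness rests on the step between the groups: among the 15870 genes compared, 197 had a Pearson r above 0.99 with *RBM24*. For *MBNL2*, the regulator with the lowest fold change, the most alike genes were *MED13* (r = 0.986), *BTBD8*, *SPRY2*, *ZBTB6* and *ARHGAP21* (r = 0.978), and 112 genes had r above 0.9. *MED13*, a subunit of the Mediator kinase module, ran from 61.8 to 65.6 CPM in IMF and from 66.4 to 81.5 CPM in SF.

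Of 6 further paralogs of the CELF and RBFOX families, only *CELF4* and *RBFOX3* were in the table. *RBFOX3*, the neuronal family member known as NeuN, had 48, 48, 124 and 72 counts in IMF1 to IMF4 and 16, 10, 16 and 14 in SF1 to SF4, all even. The groups were separate, at 3.23 ± 1.77 and 0.686 ± 0.143 CPM (SD, n = 4 each), and the gene was called higher in IMF (log2 fold change 2.23, SE 0.43, edgeR adjusted p = 0.00616). That call was not made by limma-voom (adjusted p = 0.0516), and the highest adjusted p over the alternatives was 0.154. *CELF4* had 8.50 to 30.7 CPM in IMF and 22.7 to 31.8 CPM in SF and was not called (log2 fold change -0.48, edgeR adjusted p = 0.389).

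Other RNA-binding regulators were described from a list of 63 genes, of which 58 were tested. Only *SRPK3*, the muscle-specific SR-protein kinase, was called higher in IMF, and 0 were called lower, beside 4.78% and 4.04% of all genes tested. *SRPK3* had 9.64, 8.31, 5.67 and 6.14 CPM in IMF1 to IMF4 and 0.821, 0.200, 0.690 and 1.05 CPM in SF1 to SF4. The groups were separate, with means of 7.44 ± 1.87 and 0.690 ± 0.358 CPM (SD, n = 4 each) and a log2 fold change of 3.43 (SE 0.42, edgeR adjusted p = 0.000742). It was called in all 20 alternative settings, with adjusted p at most 0.00991.

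Smaller differences were frequent in the same list. At an adjusted p under 0.05 and any fold, 29 of the 58 were higher in IMF and 3 were lower, beside 14.4% and 11.4% of all genes. At an unadjusted p under 0.05 the counts were 32 and 4, beside 3698 and 3261 of the 18339 genes tested. The 29 became 17 without IMF2 and 18 without IMF3, while the genes higher among all those tested went from 2639 to 1745 and 1792. The median log2 fold change was 0.32. The SR proteins *SRSF1* and *SRSF7*, which activate exons, rose by 0.87 and 0.68 on the log2 scale (edgeR adjusted p = 0.000508 and 0.000423), and *SRSF1* had 166 ± 6.88 CPM in IMF against 90.4 ± 11.3 CPM in SF (SD, n = 4 each). *PTBP1*, the polypyrimidine tract-binding repressor of neuronal and muscle exons, had 282 ± 4.33 and 185 ± 21.6 CPM (log2 fold change 0.61, edgeR adjusted p = 0.00225). *FXR1*, an RNA-binding protein required in muscle, was higher by 0.41 (edgeR adjusted p = 0.0110) while its paralog *FXR2* fell by 0.64 (edgeR adjusted p = 0.00396). The other genes that fell were *STAU2*, a carrier of mRNA, by 0.46 (edgeR adjusted p = 0.0456) and *SAMD4A*, a translational repressor, by 0.42 (edgeR adjusted p = 0.0156). With total counts alone only 1 of these 3, *FXR2*, stayed under an adjusted p of 0.05.

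The core spliceosome was measured with 42 genes, all tested. Its members are the snRNP proteins and helicases that carry out splicing in every cell. All 42 log2 fold changes were positive, from 0.07 for *PRPF8* to 1.34 for *SNRPG*, except that 1 turned negative when SF1 was left out. At an adjusted p under 0.05 and any fold, 30 were higher in IMF and 0 were lower, beside 14.4% and 11.4% of all genes. The 30 became 24 without IMF1, IMF2 or IMF3 and with the clone number as a block. The genes higher among all those tested then went from 2639 to 2015, 1745, 1792 and 2111. At an unadjusted p under 0.05, 0 were lower, beside 3261 of the 18339 genes tested. With DESeq2 0 were lower at an adjusted p under 0.05, beside 2823. The median was 0.39, beside -0.03 over all genes, and with total counts alone the medians were 0.53 and 0.12. The only gene called higher, beside 4.78% of all genes tested, was *SNRPG*, an Sm ring protein, and 0 were called lower. *SNRPG* had 29.5 ± 2.93 CPM in IMF against 11.7 ± 2.69 CPM in SF (SD, n = 4 each, log2 fold change 1.34, SE 0.17, edgeR adjusted p = 0.000779). Among the other Sm proteins, *SNRPE* and *SNRPF* were higher by 0.96 and 0.94 on the log2 scale (edgeR adjusted p = 0.00103 and 0.000752).

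**Figure D5:**
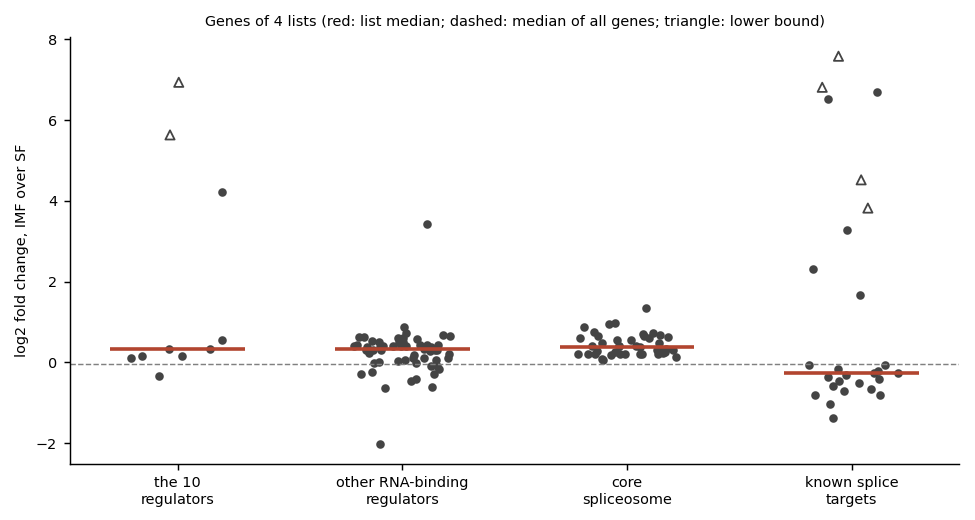
Log2 fold change, IMF over SF clones, of each gene in 4 lists: the 10 regulators, 58 other RNA-binding regulators, 42 core spliceosome genes and 27 genes known as splice targets of these proteins; red lines are list medians, the dashed line the median of all genes at -0.03, and open triangles lower bounds. The core spliceosome genes all lie above 0, and the splice targets run from -1.38 to beyond 6.

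Genes whose exons are known to be chosen by the regulators were then compared by their summed level, since gene-level counts carry no measure of exon use. Of 33 such genes 27 were tested, 9 were called higher in IMF and 2 lower, beside 4.78% and 4.04% of all genes, and the median log2 fold change was -0.26. At an adjusted p under 0.05 and any fold, 9 were higher and 7 lower, beside 14.4% and 11.4% of all genes. With DESeq2 9 were higher and 10 lower, beside 3218 and 2823 of the 18339 genes tested. With total counts alone 9 were higher and 4 lower, beside 3356 and 1189, and the median was -0.10. The list was chosen with earlier results of these data known, so nothing is read from these counts. *TTN*, which encodes titin and is the best known target of RBM20, had 139 to 156 CPM in IMF and 0.528 to 2.67 CPM in SF (log2 fold change 6.52, SE 0.40, edgeR adjusted p = 2.11e-05). *TNNT2*, encoding cardiac troponin T and a standard target of MBNL and CELF proteins, was at least 191-fold higher in IMF, with 24.6 to 32.9 CPM there and at most 0.0812 CPM in SF. *PDLIM3*, a Z-disc protein, was at least 112-fold higher in IMF and had 0 counts in every SF clone. *RYR1*, the calcium release channel of skeletal muscle, had 13.0 ± 1.30 CPM in IMF against 0.112 ± 0.100 CPM in SF (SD, n = 4 each, log2 fold change 6.70, edgeR adjusted p = 2.99e-05). That SF mean lies under the level of 3 counts, 0.122 to 0.165 CPM, so the size of the fold is uncertain. *BIN1*, which shapes T-tubules, was expressed in both groups, at 147 ± 5.82 and 46.5 ± 10.2 CPM (log2 fold change 1.66, SE 0.15, edgeR adjusted p = 0.000154).

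The 2 targets called lower encode cytoskeletal proteins found in many cell types. *ACTN1*, non-muscle alpha-actinin, had 474 to 485 CPM in IMF and 1863, 915, 1023 and 1187 CPM in SF1 to SF4 (log2 fold change -1.38, SE 0.21, edgeR adjusted p = 0.00229). *PDLIM5*, an actin-associated adaptor, had 167 to 181 CPM in IMF and 518, 293, 255 and 366 CPM in SF1 to SF4 (log2 fold change -1.04, SE 0.21, edgeR adjusted p = 0.00720). SF1 was the highest clone for both genes, as it was for the smooth muscle and pericyte markers, and without SF1 the log2 fold change of *PDLIM5* was -0.81 (edgeR adjusted p = 0.00278), short of the fold needed for a call. The groups were separate for both genes.

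Among mRNAs known to be bound by RBM24 or RBM38, *MYOG* and *CDKN1A* are described. *MYOG*, the myogenic factor whose mRNA both proteins bind, had 34.2 to 45.3 CPM in IMF and 0 counts in every SF clone, at least 275-fold higher. *CDKN1A*, the cell cycle inhibitor p21, was higher by 0.38 on the log2 scale (edgeR adjusted p = 0.0358). *MYOG* is also among the skeletal muscle markers above.

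*DMPK* and *CNBP* carry the repeats that sequester MBNL proteins in human myotonic dystrophy. *DMPK*, a muscle kinase, had 124, 114, 124 and 109.9 CPM in IMF1 to IMF4 and 107, 18.4, 10.1 and 22.9 CPM in SF1 to SF4. SF1 stood almost at the IMF level, as it stood above it for *RBM38*. The log2 fold change was 1.58 (SE 0.66, edgeR adjusted p = 0.115), and without SF1 it was 2.79 (adjusted p = 0.000358). *CNBP*, a nucleic acid-binding protein found in most cells, had 182 to 203 CPM in IMF and 122 to 154 CPM in SF (log2 fold change 0.44, edgeR adjusted p = 0.0105).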

How the data were processed

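Poly(A) RNA of 8 bovine clones was sequenced in paired-end reads. The authors trimmed the reads with Trimmomatic 0.39 and counted them on genes of ARS-UCD2.0 with featureCounts 2.0.2, and they deposited unnormalized counts per gene and clone. The aligner is HISAT2 in the paper and STAR 2.7.11a in the submitters' processing notes. The library kit is non-stranded in the paper, whereas the labels describe a dUTP protocol. The methods name TPM, but the deposited values are whole counts with unequal totals. The authors also deposited group means and a scaled mean as signal columns and their own DESeq2 comparison as log2 fold changes, a score and p-values, none of which was used; the deposited gene length was used for TPM. The row without a gene name (at most 0.0209% of a clone's counts) was left out.

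Genes with at least 20 counts in total were tested in edgeR 4.0.16 (R 4.3.3) with TMM scaling and a quasi-likelihood test (two-sided), with p-values adjusted by the Benjamini-Hochberg method across 18339 genes. The SE of a log2 fold change was derived from the same test. Where all 4 clones of a group had 3 counts or fewer, the fold was computed against 3 counts in each of them; 3 counts correspond to 0.0981 to 0.165 CPM. The alternatives were DESeq2 1.42.0, limma-voom (limma 3.58.1) with and without group quality weights, other scalings and filters, a prior count of 2, edgeR's glmTreat at a log2 fold change of 1, a block for the clone number, and dropping each clone in turn; halving even-only counts was added after the data were seen. The tests were tried on simulated counts.

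The 10 regulators, the other lists and the marker lists were chosen with earlier results of these data known, so counts of their calls are not a test. All 10 regulators were named, and in each other list the called genes with the highest mean CPM, at most 5 per direction; the genes named for *RBM24* and *MBNL2* were the 5 with the highest Pearson correlation of log2 CPM (prior count 2) among genes with at least 1 CPM in the higher group. *CELF4*, *SRSF1*, *SRSF7*, *PTBP1*, *FXR1*, *FXR2*, *STAU2*, *SAMD4A*, *PRPF8*, *SNRPE*, *SNRPF*, *CDKN1A*, *PTPRC*, *DMPK* and *CNBP* were named after their values were seen. Gene positions are those of the RefSeq list of ARS-UCD2.0. Some genes of the lists are not reported here.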

Additional observations from a re-analysis of the deposited data

Results flagged for a closer look

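Among 19 groups of 4 clones checked for a single clone far from the other three, 3 were found, and chance alone gives about 1 in 20 such groups. *RBM20* had 0.771 CPM in SF4, above the other SF clones. Without SF4 its fitted log2 fold change was 6.00, a value that rests on 1, 1 and 2 counts in SF1 to SF3. *MBNL3* had 6.26 CPM in IMF3, below the other IMF clones, and 0.103 CPM in SF1, where the other SF clones had 0 counts and SF1 had 2. With the other three at 0, any count in SF1 would have stood apart, so the rate of 1 in 20 does not apply to that value.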

How the results depend on the processing

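The calls of all 10 regulators were the same in each of 20 alternative settings, and only *RBM38* changed sign. Testing against a log2 fold change of 1 left 476 genes called higher and 155 lower of 877 and 741, and made 0 calls among the paralogs, 0 among the core spliceosome genes and 0 lower among the splice targets (*SNRPG* adjusted p = 0.202, *ACTN1* 0.295). *RBFOX3* was not called by limma-voom or voom with group quality weights, leaving 0 paralogs. With total counts alone 1078 genes were called higher and 539 lower, with 2 other regulators (adding *SRSF1*), 4 core spliceosome genes (adding *SNRPD1*, *SNRPE* and *SNRPF*) and 1 splice target lower. *PDLIM5* was also lost under limma-voom and the quality weights, leaving 1 lower. Leaving out 1 clone gave 1 to 2 other regulators higher and 0 to 1 lower (*RBPMS2* and *IGF2BP3*, without SF1), 1 to 3 core spliceosome genes (3 without IMF4 and without SF2), 1 to 2 splice targets lower and 0 to 1 repeat genes (*DMPK*, without SF1). *DMPK* was also called, as 1 repeat gene, by DESeq2, limma-voom and the quality weights. Ranked by CPM in place of TPM, 6 regulators in IMF and 4 in SF kept their place. The causes were not tested.

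With the clone number as a replicate block, 1 splice target was lower (*PDLIM5* lost, log2 fold change -0.98) and 1 repeat gene was called (*DMPK*, adjusted p = 0.0496); the counts of calls among the regulators, paralogs, core spliceosome and stability targets moved by no more than 1.5 times, and among the markers *PTPRC* was called lower as well (adjusted p = 0.0263) while the calls of *DES* (adjusted p = 0.0551) and *ACTA2* (adjusted p = 0.0889) were lost. The numbers were not taken to pair the clones: deviations of same-numbered clones correlated at 0.00645 to 0.203, those of other clones at -0.139 to 0.170, and 4 of 8 clones correlated best with their own number. In SF clones, levels under 0.122 to 0.165 CPM could not be told from 0 at this depth.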
